A study of Mus musculus with 12 samples.

Results

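The genes described here are a list of 38 glycolysis and hypoxia-responsive genes, from oxygen-sensing regulators and glucose transporters to lactate dehydrogenases and carbonic anhydrases. Each gene was read from the probe set that carries its symbol alone, and, where a gene had several, from the probe set with the highest mean over all 12 arrays. On this basis 35 of the 38 genes were measured, among 19938 genes in all, and Gpi1, Gapdh and Eno1, which had no such probe set, are not analysed here. Values are log2 signals, on which a difference of 1 is a fold of 2. Total RNA of 12 mouse samples in 4 groups of 3 was hybridised, each sample to its own array. ESC is V6.5, an established embryonic stem cell line grown in DMEM that held 15% fetal bovine serum, along with LIF, the cytokine that keeps such cells undifferentiated, at 1000 IU/ml. The null_EB group is embryoid bodies of CD47 null C57Bl/6 lung endothelial cells that had been passaged for 6 months and were then seeded in basal endothelial medium without serum, where the bodies appeared after 24 to 36 h. The null_EC group is CD47 null C57Bl/6 lung endothelial cells in the growth factor-rich medium EGM2. The WT_EC group is wild-type C57Bl/6 lung endothelial cells in EGM2. The time in passage is given for null_EB alone, and the labels do not say whether the 3 samples of a group came from separate animals or cultures, so that p-values measure only the spread between these samples. CD47 is a cell surface receptor for thrombospondin-1, and the series set out to find expression changes that go with its loss. In RNA of whole cultures, fewer cells of a type and less RNA per cell cannot be told apart.

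Glycolysis splits glucose into pyruvate in the cytosol and yields ATP without oxygen, provided that pyruvate is reduced to lactate. When oxygen is scarce, the prolyl hydroxylases that mark hypoxia-inducible factors for destruction (the Egln proteins) lose activity, and the stabilised factors raise glucose transporters, glycolytic enzymes, the lactate exporter and pyruvate dehydrogenase kinase, along with some of their own hydroxylases. Endothelial cells and pluripotent stem cells are both known to draw much of their ATP from glycolysis even with oxygen present.

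Hypoxia-inducible factors bind DNA at a short core, ACGTG or GCGTG. The promoter windows in RefSeq's mouse annotation (GRCm38.p6, 250 bases before to 50 bases after each start) were searched for these letters on both strands, with ACGTG inside CACGTG counted once on each strand. Windows were found for 31 of the 35 measured genes, 44 windows in all, and either core stood in 77.3% of them, against 51.7% of the 19177 windows of genes tested on the array and 43.8% of all 32851 windows. ACGTG stood in 56.8% of the listed genes' windows, against 21.6% in genes tested, and GCGTG in 52.3%, against 40.9%. Of the 31 genes, 28 had a core in at least 1 window, and Car12, Eno2 and Tpi1 had neither core. Epas1, Slc2a3, Ndrg1 and Bhlhe40 had no window in the table. The windows of 2 pairs of related genes that moved apart across the groups, and of the regulator with the widest spread among wild-type samples, are printed 5′ to 3′ with the cores, on either strand, in capitals. Ldha, for lactate dehydrogenase A, lies at chr7:46845554-46845853 on the plus strand. RefSeq gives Ldha a further window at chr7:46846832-46847131, which holds 0 ACGTG and 2 GCGTG and is not printed. Ldhb, for lactate dehydrogenase B, lies at chr6:142507908-142508207 on the minus strand. Car9 and Car12, for membrane carbonic anhydrases, lie at chr4:43506776-43507075 and chr9:66713436-66713735, both on the plus strand. Egln3, for a prolyl hydroxylase, lies at chr12:54203825-54204124 on the minus strand.
Ldha: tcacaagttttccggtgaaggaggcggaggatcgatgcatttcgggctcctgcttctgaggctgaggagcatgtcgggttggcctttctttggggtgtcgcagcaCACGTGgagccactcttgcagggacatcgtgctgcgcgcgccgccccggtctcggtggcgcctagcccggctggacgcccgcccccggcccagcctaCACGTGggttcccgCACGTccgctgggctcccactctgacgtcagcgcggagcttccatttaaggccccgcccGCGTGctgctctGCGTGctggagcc
Ldhb: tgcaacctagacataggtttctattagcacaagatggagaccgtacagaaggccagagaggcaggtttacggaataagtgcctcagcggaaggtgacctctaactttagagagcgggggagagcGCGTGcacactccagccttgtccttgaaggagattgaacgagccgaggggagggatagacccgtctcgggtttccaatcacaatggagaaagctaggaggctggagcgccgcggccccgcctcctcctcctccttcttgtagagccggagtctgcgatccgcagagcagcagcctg
Car9: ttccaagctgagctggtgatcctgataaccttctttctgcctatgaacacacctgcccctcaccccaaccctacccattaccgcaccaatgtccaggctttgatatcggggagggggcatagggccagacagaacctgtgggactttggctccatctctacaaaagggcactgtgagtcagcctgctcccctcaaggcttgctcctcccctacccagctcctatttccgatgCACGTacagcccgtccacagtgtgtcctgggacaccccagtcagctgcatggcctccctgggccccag
Car12: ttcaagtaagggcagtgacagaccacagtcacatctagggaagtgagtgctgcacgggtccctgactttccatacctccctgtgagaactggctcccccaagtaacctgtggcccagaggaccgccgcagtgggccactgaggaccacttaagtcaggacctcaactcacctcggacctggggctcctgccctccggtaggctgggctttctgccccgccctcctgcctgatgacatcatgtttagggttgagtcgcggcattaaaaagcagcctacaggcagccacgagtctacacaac
Egln3: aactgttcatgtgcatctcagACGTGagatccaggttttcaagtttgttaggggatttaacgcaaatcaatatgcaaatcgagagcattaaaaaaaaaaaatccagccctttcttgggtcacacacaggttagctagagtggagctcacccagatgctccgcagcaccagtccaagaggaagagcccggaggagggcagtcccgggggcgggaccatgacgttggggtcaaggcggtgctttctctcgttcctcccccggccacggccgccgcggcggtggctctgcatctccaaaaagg
A match says only that the letters are there, and no binding was measured.

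The labels were checked against marker genes. Of the endothelial markers, Pecam1 read 6.53 to 6.59 in null_EB, 6.57 to 6.61 in null_EC and 6.46 to 7.56 in WT_EC, below the median of all values, 8.01, in each, and below the 8.84 to 8.87 in ESC. The endothelial markers differed among themselves. Kdr, for a receptor of vascular endothelial growth factor, read 7.26 to 7.40 in null_EB, 10.52 to 10.83 in null_EC, 8.51 to 9.35 in WT_EC and 6.84 to 6.98 in ESC. Cdh5, for the cadherin of endothelial junctions, read 7.01 to 7.09 in null_EB, 7.09 to 7.27 in null_EC, and 9.10, 6.85 and 9.52 in WT_EC. Ptprb, an endothelial phosphatase, read 9.09 to 9.39 in null_EB, 8.86 to 8.90 in null_EC, and 7.48, 9.85 and 7.63 in WT_EC. The mesothelial gene Upk3b read 12.05 to 12.25 in null_EB, 13.03 to 13.06 in null_EC and 11.06 to 12.50 in WT_EC, against 7.64 to 7.83 in ESC. The median of 14 fibroblast and smooth muscle markers was 9.9 to 10.1 in null_EB, 10.2 to 10.9 in null_EC and 10.6 to 11.5 in WT_EC. In ESC it was 10.4 to 10.5. The median of 20 endothelial markers was lower, at 7.1 to 7.2 in null_EB, 7.3 in null_EC, 7.1 to 8.0 in WT_EC and 7.5 to 7.6 in ESC. Nanog, a pluripotency factor, was high in ESC (12.54 to 12.60) and below the all-value median on the other 9 arrays. Another pluripotency marker, Tfcp2l1, read 10.56 to 10.66 in ESC, 9.16 to 9.47 in null_EB, 9.70 to 9.94 in null_EC and 7.45 to 8.45 in WT_EC. It was the 1 of 12 pluripotency markers called higher in null_EC than in WT_EC by limma, where 8.12% of all genes were. The median of 14 proliferation markers was at least 11.81 in ESC, 8.26 to 8.75 in null_EB, 7.80 to 8.27 in null_EC and 9.50 to 10.32 in WT_EC, so proliferation genes move with each comparison, and their part in the results was not tested. Cd47 fell 2.12-fold in null_EC against WT_EC (adjusted p = 0.0228), but signal remained on the null_EC arrays (10.98 to 11.11, against 11.29 to 12.59 in WT_EC). ESC, whose titles do not name it CD47 null, read 11.23, 10.96 and 11.33. It was not called against null_EC (limma adjusted p = 0.691) and was 1.93-fold lower than WT_EC (limma adjusted p = 0.0141). The probe set thus did not set null samples apart from ESC, and where it lies relative to the deletion is not known here. The WT_EC arrays differed among themselves more than those of other groups. For the listed genes the median SD was 0.653 in WT_EC, against 0.0980 in ESC, 0.0764 in null_EB and 0.0532 in null_EC. For all genes the median SD was 0.213 in WT_EC. Because the fit over 12 arrays shares 1 estimate of the spread, a second fit over the 9 arrays without WT_EC, added after this was seen, is given beside it.

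**Figure D1:**
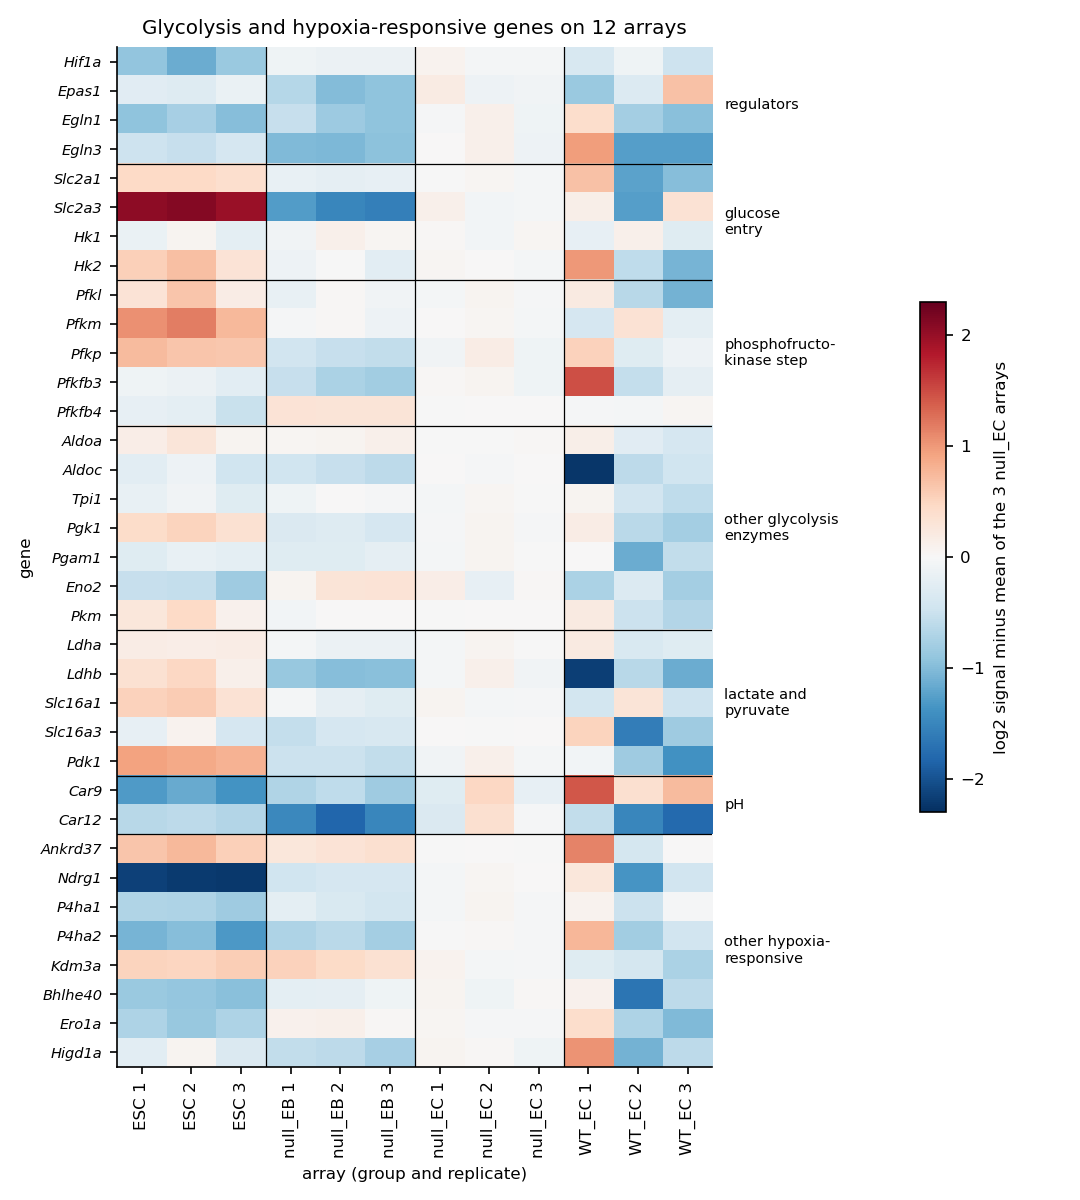
Log2 signal of the 35 measured genes (rows, by role) on each of the 12 arrays (columns, by group), as the difference to the mean of the 3 null_EC arrays; red is higher and blue lower. The 3 arrays of ESC, of null_EB and of null_EC look alike within their group, while WT_EC 1 differs from WT_EC 2 and 3 in most rows.

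In ESC, the glucose transporter Slc2a3, the phosphofructokinase subunits Pfkm and Pfkp and the pyruvate dehydrogenase kinase Pdk1 rose against each of the other groups, while the factor Hif1a, the collagen prolyl hydroxylase P4ha1 and the stress-responsive gene Ndrg1 fell. At an adjusted p below 0.05, which is what a call means below, 8 of the 35 genes were higher (21.8% of all genes) and 6 lower (23% of all genes) in ESC than in null_EB. Against null_EC, 6 were higher (22.9% of all genes) and 10 lower (25.1%). Against WT_EC, 11 were higher (25.4%) and 6 lower (21.7%). The shared estimate of the spread is smaller than the spread of WT_EC for many listed genes. In a fit of the 6 arrays of ESC and WT_EC alone, 6 were higher and 4 lower, where 31.3% of all genes were called. Counted over both directions, the list was called about as often as genes in general, and the 3 comparisons share the ESC arrays. The median log2 difference over the 35 genes was 0.27, -0.17 and 0.33 against null_EB, null_EC and WT_EC in turn, beside -0.08, -0.09 and -0.07 over all genes. In the fit without WT_EC the calls against null_EB came to 20 higher (28.8% of all genes) and 9 lower (35.8%), and those against null_EC to 15 higher (29.4%) and 16 lower (37.4%).

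These splits depend on how arrays are scaled. When each array was shifted to an equal median of 25 housekeeping genes outside the list, the median of all genes moved by -0.47, -0.17 and -0.24 on the log2 scale against null_EB, null_EC and WT_EC. The calls then split into 5 higher and 14 lower against null_EB (11.1% and 67.4% of all genes). They split into 5 and 12 against null_EC (17.1% and 37.8%), and 8 and 7 against WT_EC (17.2% and 46.8%). The median difference of the 25 housekeeping genes themselves against null_EB moved from -0.02 (9 higher and 5 lower) to -0.49 (3 higher and 16 lower). With that shift and without WT_EC, 7 listed genes were higher and 16 lower against null_EB, where 87.9% of all genes were called in either direction. Against null_EC 10 were higher and 20 lower, where 75.5% of all genes were called. The genes called in the same direction by the 9-array fit under both scalings were 7 higher and 9 lower against null_EB, and 10 higher and 16 lower against null_EC. The share of all genes called under both scalings was not counted, so these numbers describe single genes and not the list.

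**Figure D2:**
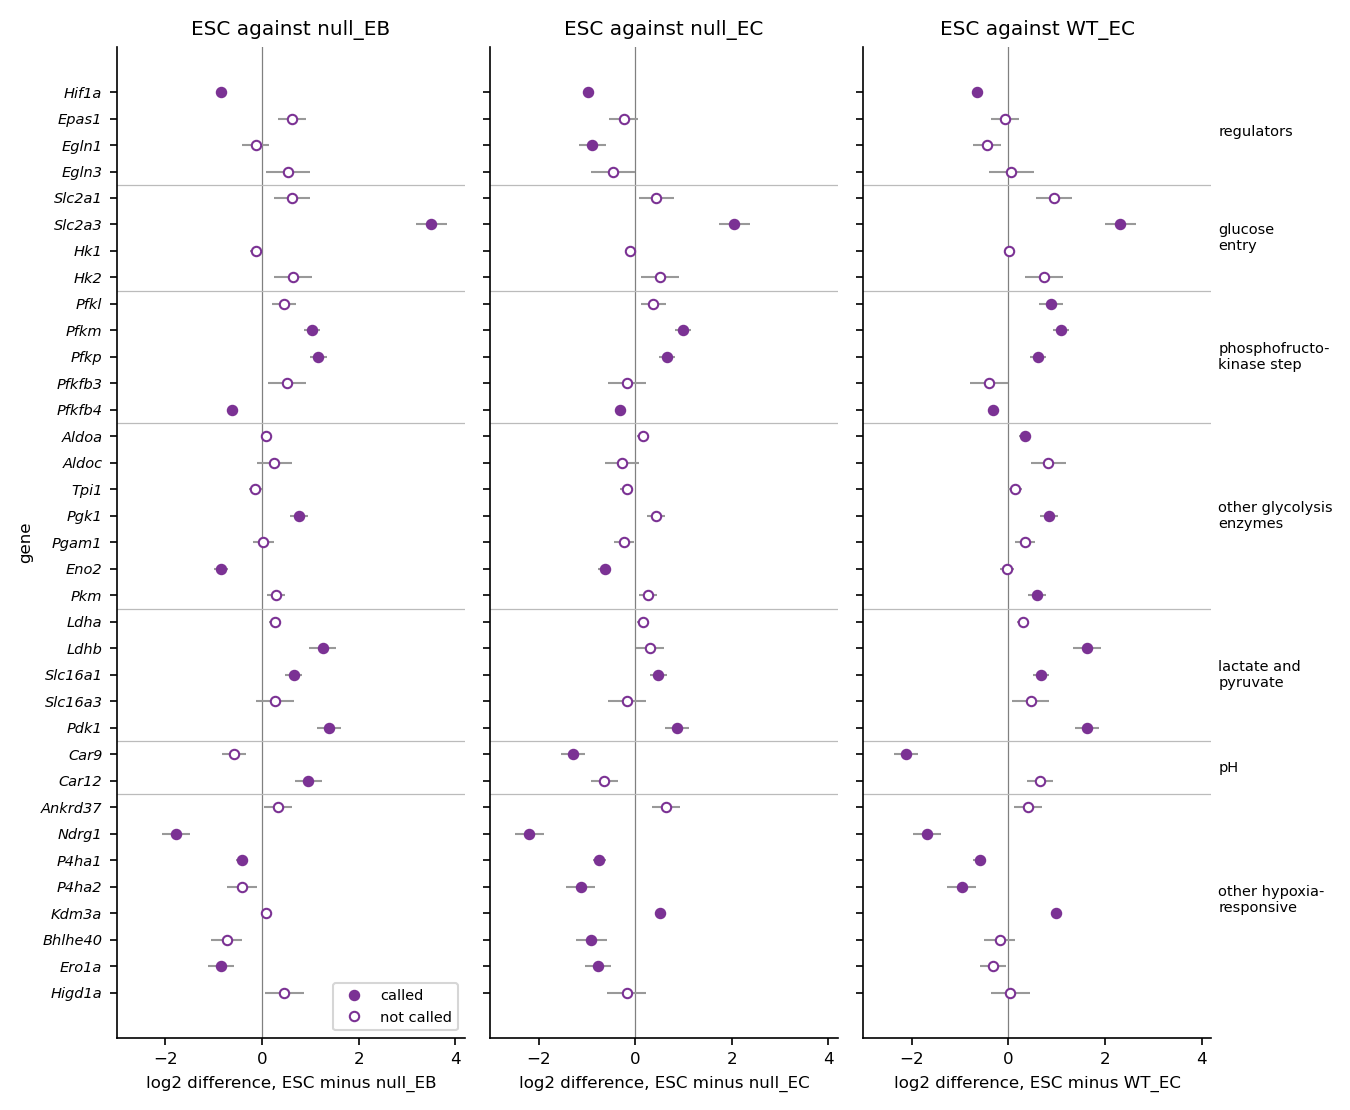
Log2 difference of ESC minus null_EB, minus null_EC and minus WT_EC (left to right) for each gene, with its SE from the 12-array fit; filled points are called at an adjusted p below 0.05. Slc2a3 stands farthest to the right and Ndrg1 among the farthest to the left in all 3 panels.

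Among the regulators, Hif1a, for the oxygen-regulated factor HIF-1 alpha, read 11.94, 11.71 and 11.98 in ESC, 12.74, 12.72 and 12.71 in null_EB, 12.93, 12.79 and 12.81 in null_EC, and 12.47, 12.75 and 12.37 in WT_EC. All 3 ESC values lay below the other 9. Hif1a fell in ESC by 0.84 ± 0.11 (SE) on the log2 scale against null_EB (adjusted p = 5.87e-05), by 0.97 ± 0.11 against null_EC (adjusted p = 1.84e-05) and by 0.65 ± 0.11 against WT_EC (adjusted p = 0.000393), and each call held with the housekeeping shift. Its protein is controlled mainly by stability, which arrays do not measure. Epas1, for HIF-2 alpha, the form known from endothelium, read 8.84, 8.81 and 8.95 in ESC, 8.45, 8.11 and 8.18 in null_EB, 9.30, 8.99 and 9.02 in null_EC, and 8.24, 8.78 and 9.78 in WT_EC. No ESC comparison called it on 12 arrays. ESC lay above null_EB and below null_EC without overlap, and the WT_EC arrays reached from the null_EB values to above null_EC. Egln1, for the main HIF prolyl hydroxylase, read 10.02, 10.18 and 9.97 in ESC, 10.42, 10.12 and 10.02 in null_EB, 10.91, 11.07 and 10.86 in null_EC, and 11.36, 10.16 and 9.98 in WT_EC. It fell in ESC against null_EC only among the 3 comparisons (1.85-fold, adjusted p = 0.0242). Egln3, a hydroxylase that hypoxia induces, averaged 11.50 ± 0.07 in ESC, 10.96 ± 0.04 in null_EB, 11.96 ± 0.11 in null_EC and 11.44 ± 1.29 in WT_EC (SD, n = 3 each), and was not called in any comparison on 12 arrays.

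Glucose enters cells through facilitated transporters and is trapped by hexokinase. Slc2a3, for the high-affinity transporter GLUT3, read 13.26, 13.32 and 13.19 in ESC, 9.92, 9.71 and 9.64 in null_EB, 11.33, 11.14 and 11.15 in null_EC, and 11.34, 9.95 and 11.54 in WT_EC. Every ESC array exceeded every other array. The rise in ESC was 11.3-fold against null_EB (log2 3.5 ± 0.32, adjusted p = 4.71e-06), 4.14-fold against null_EC (2.05 ± 0.32, adjusted p = 0.000265) and 4.98-fold relative to WT_EC (2.32 ± 0.32, adjusted p = 0.000116), the largest increase of a listed gene in each. Slc2a1, for the widespread transporter GLUT1, read 13.46, 13.46 and 13.38 in ESC, 12.82, 12.79 and 12.80 in null_EB, 12.99, 13.04 and 12.95 in null_EC, and 13.66, 11.77 and 12.02 in WT_EC. ESC exceeded null_EB and null_EC on every array but was not called against any group on 12 arrays (adjusted p = 0.193, 0.351 and 0.0547 against null_EB, null_EC and WT_EC). Without WT_EC, Slc2a1 was called higher in ESC than in null_EB (1.54-fold, adjusted p = 3.42e-07) and in null_EC (1.36-fold, adjusted p = 1.14e-05), though with the housekeeping shift the call against null_EB was lost (log2 0.16, adjusted p = 0.121). Hk2, for the inducible hexokinase, averaged 10.70 ± 0.19 in ESC, 10.06 ± 0.11 in null_EB, 10.18 ± 0.05 in null_EC and 9.97 ± 1.08 in WT_EC (SD, n = 3 each) and was not called on 12 arrays. Hk1, for the widespread hexokinase, gave no call either, but its probe set is uncertain. That probe set is listed only with an mRNA record that other probe sets share between Hk1 and a ribosomal protein gene, and the other Hk1 probe set ran differently, at 11.03, 9.71 and 9.60 in WT_EC against 12.84, 13.15 and 12.75 for the one used.

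Phosphofructokinase commits the sugar to glycolysis, and its muscle and platelet subunits both rose in ESC. Pfkm, the muscle-type subunit, read 10.47, 10.59 and 10.16 in ESC, 9.38, 9.45 and 9.29 in null_EB, 9.42, 9.45 and 9.37 in null_EC, and 9.02, 9.74 and 9.18 in WT_EC. No other array reached the lowest ESC value, and the rise was 2.05-fold against null_EB (adjusted p = 0.000375), 1.99-fold against null_EC (adjusted p = 0.000462), and 2.13-fold relative to WT_EC (adjusted p = 0.000258). Pfkp, the platelet-type subunit, read 11.26, 11.16 and 11.15 in ESC, 10.10, 10.00 and 9.97 in null_EB, 10.45, 10.71 and 10.43 in null_EC, and 11.06, 10.25 and 10.41 in WT_EC. ESC again lay above all others, by 2.25-fold against null_EB (adjusted p = 0.000198), 1.58-fold against null_EC (adjusted p = 0.00813), and 1.53-fold relative to WT_EC (adjusted p = 0.0123), the last of which was lost with the housekeeping shift (log2 0.37, adjusted p = 0.0615). Pfkl, the liver-type subunit, read 11.43, 11.74 and 11.28 in ESC, 10.94, 11.12 and 11.02 in null_EB, 11.07, 11.16 and 11.09 in null_EC, and 11.31, 10.47 and 10.03 in WT_EC. It was called only against WT_EC (1.84-fold, adjusted p = 0.0146), where WT_EC 1 fell within the ESC range. The bifunctional enzymes that set the level of fructose 2,6-bisphosphate, an activator of this step, went otherwise. Pfkfb4 read 7.43, 7.40 and 7.10 in ESC, 7.94, 7.93 and 7.92 in null_EB, 7.61, 7.63 and 7.64 in null_EC, and 7.60, 7.59 and 7.68 in WT_EC, all below the all-value median of 8.01. It fell in ESC by 0.62 ± 0.09, 0.31 ± 0.09 and 0.31 ± 0.09 on the log2 scale against null_EB, null_EC and WT_EC (adjusted p = 0.000124, 0.0109 and 0.0119). Pfkfb3, the form with the highest kinase activity, averaged 9.20 ± 0.08 in ESC, 8.68 ± 0.14 in null_EB, 9.37 ± 0.08 in null_EC and 9.61 ± 1.09 in WT_EC (SD, n = 3 each), without a call on 12 arrays.

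The enzymes from aldolase to pyruvate kinase went in both directions in ESC. Of 7 measured, 1 rose (21.8% of all genes) and 1 fell (23%) against null_EB on 12 arrays. Against null_EC, 0 rose by limma (1 at an unadjusted p below 0.05), where 22.9% of all genes did, and 1 fell, where 25.1% did. Against WT_EC 3 rose (25.4% of all genes). On the 9 arrays without WT_EC all 7 were called against null_EC. Aldoa, Pgk1 and Pkm were higher in ESC (29.4% of all genes) and Aldoc, Tpi1, Pgam1 and Eno2 lower (37.4% of all genes). Against null_EB 4 were called on those arrays, with Aldoc, Pgk1 and Pkm higher (28.8% of all genes) and Eno2 lower (35.8% of all genes). Eno2, the neuron-type enolase, read 9.27, 9.26 and 8.98 in ESC, 9.86, 10.10 and 10.12 in null_EB, 9.95, 9.62 and 9.84 in null_EC, and 9.07, 9.50 and 9.03 in WT_EC. It fell in ESC 1.81-fold against null_EB (adjusted p = 0.000524), and 1.55-fold relative to null_EC (adjusted p = 0.00368), and ESC overlapped WT_EC. Pgk1, for phosphoglycerate kinase, averaged 13.24 ± 0.08 in ESC, 12.48 ± 0.05 in null_EB, 12.81 ± 0.05 in null_EC and 12.40 ± 0.51 in WT_EC (SD, n = 3 each), and was called higher in ESC than in null_EB (1.70-fold, adjusted p = 0.00719) and WT_EC (1.79-fold, adjusted p = 0.00413). The call against null_EB was lost with the housekeeping shift (log2 0.30, adjusted p = 0.143). Aldoa, for the main aldolase, and Pkm, for pyruvate kinase, rose against WT_EC on 12 arrays, 1.26-fold (adjusted p = 0.0353) and 1.5-fold (adjusted p = 0.0231), and both calls were lost with that shift. Aldoc, Tpi1 and Pgam1 were not called on 12 arrays. Pgk1, Pgam1, Pkm, Ldhb and Higd1a each have further probe sets that run nearly in parallel over the arrays, and signal from near-identical copies of these genes cannot be separated.

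At the end of the pathway, Pdk1, whose kinase shuts off pyruvate dehydrogenase and so keeps pyruvate from becoming acetyl-CoA, read 11.19, 11.13 and 11.07 in ESC, 9.78, 9.77 and 9.70 in null_EB, 10.19, 10.39 and 10.22 in null_EC, and 10.20, 9.44 and 8.87 in WT_EC. ESC lay above all other arrays, with folds of 2.61 over null_EB (adjusted p = 0.000743), 1.82 over null_EC (adjusted p = 0.0131) and 3.08 over WT_EC (adjusted p = 0.000232). Ldhb, for the lactate dehydrogenase subunit known for running toward pyruvate, read 11.33, 11.46 and 11.10 in ESC, 10.11, 10.00 and 10.02 in null_EB, 10.94, 11.10 and 10.91 in null_EC, and 8.82, 10.35 and 9.84 in WT_EC. The rise in ESC was 2.38-fold over null_EB (adjusted p = 0.00432) and 3.09-fold over WT_EC (adjusted p = 0.000771), whereas ESC overlapped null_EC and was not called against it. Ldha, for the subunit known for making lactate, read 13.45, 13.45 and 13.46 in ESC, 13.24, 13.16 and 13.16 in null_EB, 13.24, 13.35 and 13.28 in null_EC, and 13.50, 12.94 and 13.01 in WT_EC. It was not called in any comparison on 12 arrays, the whole range being 0.56 on the log2 scale, which is that of the WT_EC arrays. Slc16a1, for the proton-linked carrier MCT1, read 11.66, 11.71 and 11.47 in ESC, 11.10, 10.93 and 10.86 in null_EB, 11.19, 11.10 and 11.12 in null_EC, and 10.72, 11.43 and 10.67 in WT_EC. Its rises in ESC of 1.57-fold (adjusted p = 0.00976), 1.39-fold (adjusted p = 0.0409) and 1.60-fold (adjusted p = 0.00793) against null_EB, null_EC and WT_EC held with the housekeeping shift only against WT_EC. Slc16a3, for the lactate exporter MCT4 that hypoxia induces, averaged 11.10 ± 0.23 in ESC, 10.83 ± 0.10 in null_EB, 11.26 ± 0.01 in null_EC and 10.63 ± 1.06 in WT_EC (SD, n = 3 each) and was not called.

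Car9 and Car12 encode cell surface carbonic anhydrases that buffer acid, and Car9 is a widely used hypoxia marker. Car9 read 6.77, 6.91 and 6.69 in ESC, 7.39, 7.48 and 7.26 in null_EB, 7.78, 8.54 and 7.88 in null_EC, and 9.50, 8.44 and 8.80 in WT_EC. The groups stood in this order, with null_EC and WT_EC overlapping, and ESC and null_EB lay below the all-value median on every array. Car9 fell in ESC 4.36-fold against WT_EC (log2 -2.12 ± 0.25, adjusted p = 3.82e-05), and 2.43-fold relative to null_EC (adjusted p = 0.00139), but was not called against null_EB (adjusted p = 0.0803). Car12 read 8.34, 8.37 and 8.31 in ESC, 7.50, 7.16 and 7.47 in null_EB, 8.63, 9.34 and 8.95 in null_EC, and 8.41, 7.47 and 7.20 in WT_EC. It rose in ESC 1.95-fold against null_EB (adjusted p = 0.0135), a call that was lost with the housekeeping shift on 12 arrays (log2 0.49, adjusted p = 0.0820).

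Of 8 other hypoxia-responsive genes, 3 fell in ESC against null_EB on 12 arrays (23% of all genes), 5 against null_EC (25.1%) and 3 against WT_EC (21.7%), while Kdm3a rose against null_EC and WT_EC. On the 9 arrays without WT_EC, Ankrd37 and Kdm3a were called higher against null_EC (29.4% of all genes), and Ankrd37 and Higd1a against null_EB (28.8%). Ndrg1, a gene of growth arrest and stress, read 10.64, 10.59 and 10.58 in ESC, 12.34, 12.39 and 12.41 in null_EB, 12.74, 12.83 and 12.79 in null_EC, and 13.06, 11.44 and 12.36 in WT_EC. It fell below all other arrays, 3.43-fold against null_EB (adjusted p = 0.000448), 4.55-fold against null_EC (adjusted p = 8.89e-05), and 3.21-fold relative to WT_EC (adjusted p = 0.000664). P4ha1 and P4ha2 encode the catalytic subunits of collagen prolyl hydroxylase. P4ha1 read 11.51, 11.48 and 11.37 in ESC, 11.97, 11.84 and 11.77 in null_EB, 12.15, 12.25 and 12.16 in null_EC, and 12.27, 11.71 and 12.17 in WT_EC, and P4ha1 was called lower in ESC against each group (adjusted p = 0.0226, 0.000608 and 0.00278). P4ha2 read 9.0, 9.09 and 8.76 in ESC, 9.36, 9.45 and 9.29 in null_EB, 10.06, 10.11 and 10.06 in null_EC, and 10.84, 9.27 and 9.63 in WT_EC, and fell 2.18-fold against null_EC (adjusted p = 0.0100), and 1.95-fold relative to WT_EC (adjusted p = 0.0228). ESC lay below every other array for both subunits.

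Bhlhe40, a transcriptional repressor, read 9.66, 9.62 and 9.55 in ESC, 10.29, 10.30 and 10.41 in null_EB, 10.57, 10.42 and 10.55 in null_EC, and 10.62, 8.84 and 9.91 in WT_EC. It fell in ESC against null_EC (1.88-fold, adjusted p = 0.0384), and the WT_EC arrays lay on both sides of ESC. Ero1a, an oxidase for disulfide bonds in the endoplasmic reticulum, read 12.36, 12.19 and 12.35 in ESC, 13.16, 13.19 and 13.10 in null_EB, 13.11, 13.05 and 13.04 in null_EC, and 13.47, 12.36 and 12.05 in WT_EC. It fell in ESC 1.80-fold against null_EB (adjusted p = 0.0257), and 1.70-fold relative to null_EC (adjusted p = 0.0378). Both calls of Ero1a were lost whichever array of the groups compared was left out (adjusted p 0.0550 to 0.0769 against null_EB, and 0.0731 to 0.105 against null_EC), and so was that of Bhlhe40 against null_EC (adjusted p 0.0721 to 0.0940). On the 9 arrays without WT_EC, Ero1a was called lower against null_EB and null_EC (limma adjusted p = 5.98e-08 and 1.54e-07), and Bhlhe40 against null_EC (limma adjusted p = 3.07e-08). Further ESC calls were lost without 1 or more of the 6 arrays compared, namely those of Egln1 and Slc16a1 against null_EC, P4ha1 and Car12 against null_EB, and P4ha2, Pfkl, Aldoa and Pkm against WT_EC. Kdm3a, a histone H3 lysine demethylase, went the other way, with 11.01, 10.99 and 11.07 in ESC, 11.04, 10.94 and 10.86 in null_EB, 10.59, 10.46 and 10.47 in null_EC, and 10.23, 10.11 and 9.78 in WT_EC. ESC and null_EB overlapped and stood above null_EC, which stood above WT_EC. Kdm3a rose in ESC 1.43-fold against null_EC (adjusted p = 0.00192), and 1.98-fold relative to WT_EC (adjusted p = 1.9e-05), whereas against null_EB it gave no call, and was called lower in ESC only with the housekeeping shift (log2 -0.39, adjusted p = 0.00422). Ankrd37 and Higd1a, a nuclear ankyrin-repeat gene and a mitochondrial gene of the hypoxia response, were not called on 12 arrays.

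In embryoid bodies against CD47 null endothelial cells, the transporter Slc2a3 and the carbonic anhydrase Car12 fell and the demethylase Kdm3a rose. These 3 were the calls on 12 arrays, 1 higher (2.9% of all genes) and 2 lower (2.5% of all genes), with 2 genes higher and 9 lower at an unadjusted p below 0.05. Slc2a3 fell 2.74-fold in null_EB (log2 -1.45 ± 0.32, adjusted p = 0.0255) and Car12 fell 3.03-fold (log2 -1.60 ± 0.27, adjusted p = 0.00704), and in both the highest null_EB array lay below the lowest null_EC array. Kdm3a rose 1.36-fold (log2 0.44 ± 0.11, adjusted p = 0.0395), every null_EB array lying above every null_EC array. Lack of overlap does not set these 3 genes apart. Egln3, Ldhb, Epas1 and Hif1a, among others, did not overlap either and were not called on 12 arrays. The share of all genes without overlap was not counted. The calls of Slc2a3 and Kdm3a were lost when any 1 array of these groups was left out (adjusted p 0.0590 to 0.106 and 0.0850 to 0.155), with log2 differences of -1.54 to -1.39 and 0.39 to 0.48.

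The fit without WT_EC, whose estimate of the spread is smaller, called 3 genes higher (13.7% of all genes) and 19 lower (11.7% of all genes) in null_EB. The median log2 difference over the list was -0.26, beside -0.01 over all genes. By role, 3 of 4 regulators, 2 of 4 genes of glucose entry, 2 of 5 at the phosphofructokinase step, 3 of 7 other glycolysis enzymes, 3 of 5 for lactate and pyruvate, both carbonic anhydrases and 4 of 8 other hypoxia-responsive genes were lower. Many of these differences are small, and their calls depend on the scaling. The 25 housekeeping genes had medians of 11.56 to 11.79 in null_EB, against 11.89 to 11.99 in null_EC, and a shift to equal medians moved the median of all genes by 0.30. That shift evens the median signal of the 25 genes per array and not the change of each gene. Their median log2 difference was -0.08 on the deposited scale, with 0 higher and 2 lower on 12 arrays. With the shift it was 0.22, with 10 higher and 0 lower. The 12-array calls of listed genes then split into 4 higher and 2 lower (27.2% and 1.3% of all genes). The 9-array calls split into 10 higher and 12 lower, while 70.7% of all genes were then called on 9 arrays. Under both scalings 12 genes were lower on 9 arrays, namely Epas1, Egln1, Egln3, Slc2a3, Pfkfb3, Aldoc, Ldhb, Pdk1, Car9, Car12, P4ha2 and Higd1a, and 3 were higher, namely Pfkfb4, Ankrd37 and Kdm3a. How many of all genes met both rules was not counted, so the 12 and the 3 are no result about the list.

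Among those 12, the hydroxylase Egln3 was 2.00-fold lower on the deposited scale (log2 -1.0 ± 0.07, adjusted p = 3.03e-07 on 9 arrays), and its log2 difference was -0.70 with the housekeeping shift. Ldhb was 1.92-fold lower (log2 -0.94 ± 0.09, adjusted p = 5.01e-06), or -0.64 with the shift. Epas1 was 1.81-fold lower (log2 -0.86 ± 0.10, adjusted p = 3.05e-05), or -0.56 with the shift. On 12 arrays these 3 gave adjusted p = 0.297, 0.0976 and 0.138. Hif1a differed by -0.12 ± 0.07 (adjusted p = 0.290 on 9 arrays) and Ldha by -0.10 ± 0.06 (adjusted p = 0.232), and neither was called. Among the enzymes between aldolase and pyruvate kinase the differences were 0.07 for Aldoa, -0.04 for Tpi1 and -0.01 for Pkm, none called on the deposited scale, and all 3 called higher in null_EB with the shift on 9 arrays. Serum-free basal medium, aggregation and long passage all go with null_EB, and cannot be told apart.

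**Figure D3:**
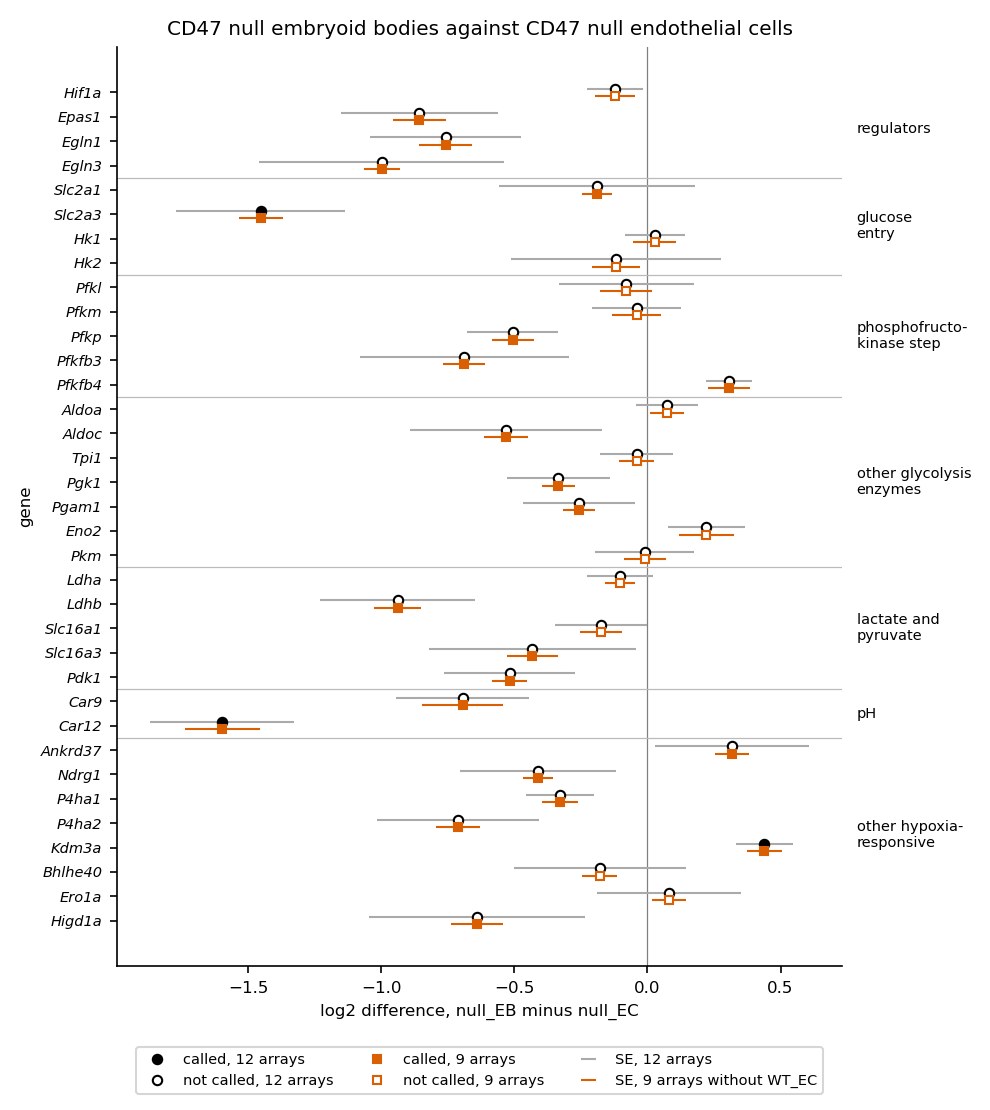
Log2 difference of null_EB minus null_EC for each gene with its SE, from the fit of all 12 arrays (circles) and of the 9 arrays without WT_EC (squares); filled symbols are called at an adjusted p below 0.05. The differences are the same in both fits and the SEs are mostly smaller without WT_EC, where 22 squares are filled against 3 circles.

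CD47 null against wild-type endothelial cells gave 4 calls, all higher in null_EC. They were Ldhb, Car12, Eno2 and Kdm3a, 4 of 35 where 8.12% of all genes were higher, and 0 of the 35 genes were lower by limma (1 at an unadjusted p below 0.05), where 5% of all genes were. Ldhb rose 2.49-fold (log2 1.31 ± 0.29, adjusted p = 0.0127), Car12 2.44-fold (1.28 ± 0.27, adjusted p = 0.0104), Eno2 1.52-fold (0.61 ± 0.14, adjusted p = 0.0187) and Kdm3a 1.38-fold (0.47 ± 0.11, adjusted p = 0.0151). In each of the 4, as their values above show, the lowest null_EC array lay above the highest WT_EC array. The same held for Aldoc and Hif1a, which were not called. The share of all genes without overlap was not counted. Car9 read lower in null_EC by 1.79-fold at an adjusted p of 0.0504, just short of a call, and was called lower with the housekeeping shift. That shift made the split 3 higher and 1 lower (3.8% and 4.94% of all genes) and cost the call of Eno2 (adjusted p = 0.0589). The median log2 difference over the list was 0.32, beside 0.03 over all genes. The call of Ldhb was lost without null_EC 2 (adjusted p = 0.0509), that of Kdm3a without null_EC 1 (adjusted p = 0.0727) and that of Eno2 without null_EC 1 or null_EC 3 (adjusted p = 0.0888 and 0.0696), while that of Car12 held whichever array was left out. In a fit of the 6 arrays of these groups alone none of Ldhb, Car12, Eno2 and Kdm3a was called (adjusted p = 0.143, 0.129, 0.126 and 0.147).

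For most of the other listed genes the wild-type arrays lay on both sides of the null arrays. WT_EC 1 was the highest of the 3 wild-type arrays for 25 of the 35 genes (71.4%, against 42.2% of all genes). It lay above all 3 null_EC arrays for 22 genes and below them for 11, whereas WT_EC 2 lay above for 3 and below for 31, and WT_EC 3 above for 4 and below for 29. Over all genes, 42.2%, 29.2% and 30.5% lay above and 41.4%, 49.4% and 47.4% below on WT_EC 1, 2 and 3. Relative to the mean of null_EC, the median of the listed genes was 0.13 for WT_EC 1, -0.59 for WT_EC 2 and -0.57 for WT_EC 3, beside 0.01, -0.06 and -0.05 over all genes.

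The widest ranges among wild-type arrays were those of Egln3, Higd1a, Slc16a3, Hk2 and Pfkfb3. Egln3 read 11.96, 12.07 and 11.85 in null_EC and 12.93, 10.69 and 10.69 in WT_EC, a range of 4.70-fold among wild-type samples. Higd1a read 8.29, 8.26 and 8.13 in null_EC and 9.27, 7.15 and 7.63 in WT_EC, a range of 4.36-fold. Slc16a3 read 11.27, 11.25 and 11.27 in null_EC and 11.78, 9.68 and 10.44 in WT_EC, a range of 4.28-fold. WT_EC 1 was the highest sample and the other wild-type arrays lay below all null_EC arrays in each. Hk2 read 10.22, 10.20 and 10.13 in null_EC and 11.19, 9.60 and 9.12 in WT_EC, a range of 4.19-fold. Pfkfb3 read 9.40, 9.43 and 9.27 in null_EC and 10.85, 8.81 and 9.17 in WT_EC, a range of 4.10-fold. The same order held in Slc2a1, with a range of 3.73-fold. A few genes ran the other way, WT_EC 1 being the lowest. Aldoc, for the brain-type aldolase, read 11.11, 11.08 and 11.10 in null_EC and 8.86, 10.50 and 10.65 in WT_EC, and Ldhb, Epas1 and Pfkm were likewise lowest on WT_EC 1. Beside this, the median of 16 immune markers was 6.65 to 6.89 in null_EC, and 7.66, 6.63 and 9.32 on WT_EC 1, 2 and 3, and that of 20 endothelial markers was 7.29 to 7.30 in null_EC, and 7.90, 7.08 and 8.02 on those arrays. The median of the 14 proliferation markers was 7.80 to 8.27 in null_EC, and 10.32, 9.50 and 9.89 on those arrays, and it was highest on WT_EC 1. The median of 12 genes of the pyruvate dehydrogenase list was 10.05 to 10.30 in null_EC, and 9.13, 10.33 and 10.14 on those arrays, and it was lowest on WT_EC 1. The part of these lists in the spread was not tested.

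**Figure D4:**
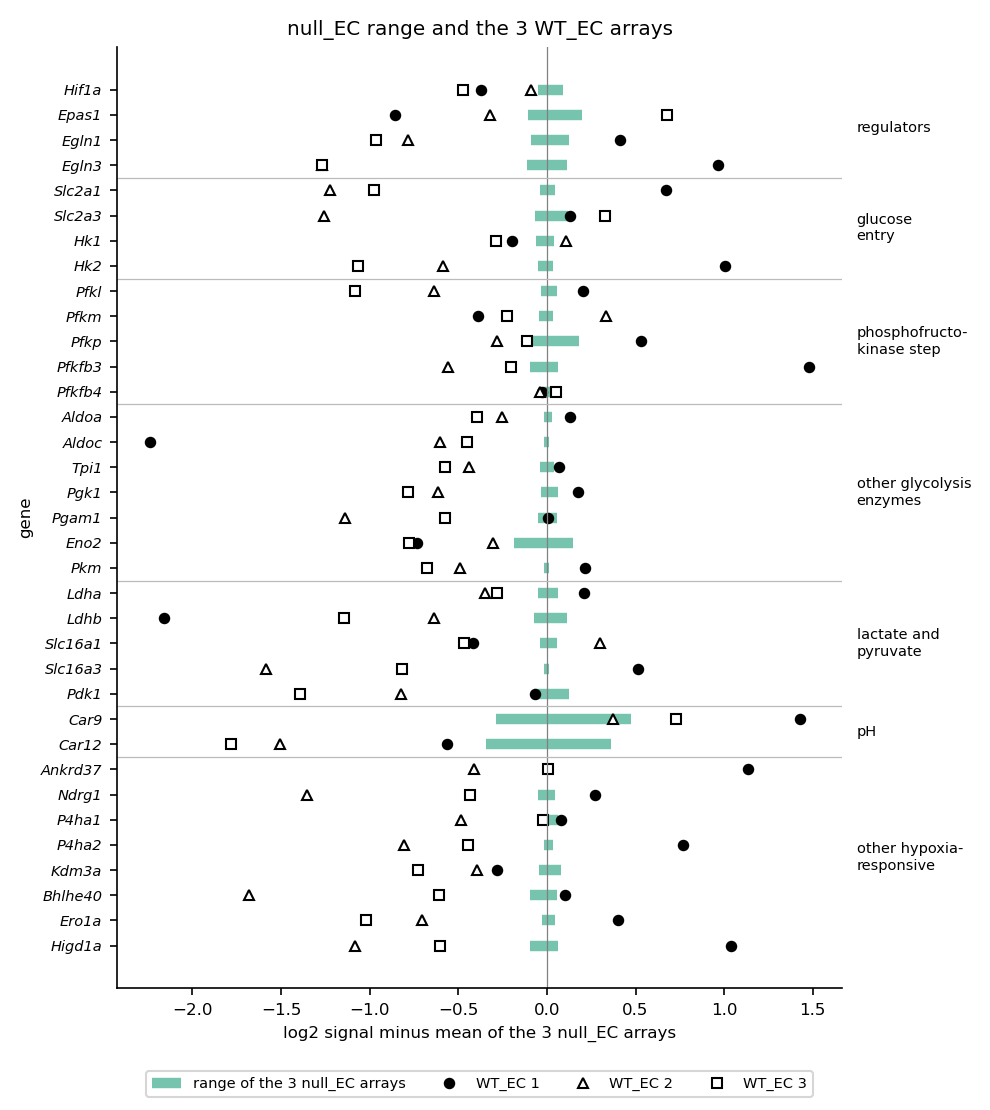
Log2 signal minus the mean of the 3 null_EC arrays, with the range of the null_EC arrays as a bar and each WT_EC array as a symbol (filled circle for WT_EC 1, triangle for WT_EC 2, square for WT_EC 3). For most genes the circle lies right of the bar and the triangle and square left of it; Aldoc and Ldhb are the widest exceptions.

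Leaving out WT_EC 1 changed this comparison more than any other setting tried. Of the 35 genes, 24 were then higher in null_EC (10.1% of all genes) and 0 lower (1 at an unadjusted p below 0.05), against 7.25% of all genes lower. The 24 include all 7 glycolysis enzymes measured from aldolase to pyruvate kinase, 4 of 5 genes for lactate and pyruvate and 6 of 8 other hypoxia-responsive genes. Egln3 was then 2.41-fold higher in null_EC (adjusted p = 5.99e-06), Slc2a1 2.14-fold (adjusted p = 1.53e-05), Slc16a3 2.30-fold (adjusted p = 0.00185), Pdk1 2.15-fold (adjusted p = 0.000408) and Car12 3.13-fold (adjusted p = 0.000196). Pfkfb3 changed sign, its log2 difference being 0.38 (adjusted p = 0.0488) without WT_EC 1 and -0.24 (adjusted p = 0.771) with it. Nothing in the labels sets WT_EC 1 apart, so the fit with all arrays stands as the result.

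Related genes kept step in some comparisons and not in others. For 12 pairs of isoforms or paralogs the per-array difference between both probe sets was compared between groups, 60 comparisons in all, by an exact permutation test for which 3 against 3 arrays allow no p below 0.1 (0.167 after Benjamini-Hochberg adjustment), so none could pass. The log2 difference Slc2a1 minus Slc2a3 changed by -2.88 in ESC against null_EB, by -1.61 in ESC against null_EC and by 1.26 in null_EB against null_EC, GLUT3 carrying most of each change. For Ldha minus Ldhb the values were -0.98 in ESC against null_EB, 0.84 in null_EB against null_EC and -1.17 in null_EC against WT_EC, again mostly from the second gene. In ESC against null_EC the value for Ldha minus Ldhb was -0.15 (exact permutation p = 0.3). Car9 minus Car12 differed by -1.55 in ESC against null_EB, by 0.90 in null_EB against null_EC and by -2.13 in null_EC against WT_EC, where Car12 rose and Car9 read lower without a call. Hif1a minus Epas1 differed by -1.46 in ESC against null_EB and by 0.74 in null_EB against null_EC. Except for Ldha minus Ldhb in ESC against null_EC, each of these values had the smallest p the test allows. They come from 4 of the 12 pairs, but values of other pairs also had that p. Pfkfb3 minus Pfkfb4 differed by 1.14 in ESC against null_EB and by -0.99 in null_EB against null_EC. Aldoa minus Aldoc differed by -0.93 in null_EC against WT_EC. Some values lay near 0. P4ha1 minus P4ha2 differed by less than 0.01 in ESC against null_EB (exact permutation p = 0.9) and by -0.02 in null_EC against WT_EC (exact permutation p = 1). That pair differed by 0.38 in null_EB against null_EC and by 0.39 in ESC against null_EC (exact permutation p = 0.1 for each). In null_EC against WT_EC, Egln1 minus Egln3 differed by -0.08, Hk1 minus Hk2 by -0.09 and Hif1a minus Epas1 by 0.15 (exact permutation p = 1 for each), and Slc2a1 minus Slc2a3 by 0.24 (exact permutation p = 0.9). These differences within an array do not depend on how arrays are shifted.

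**Figure D5:**
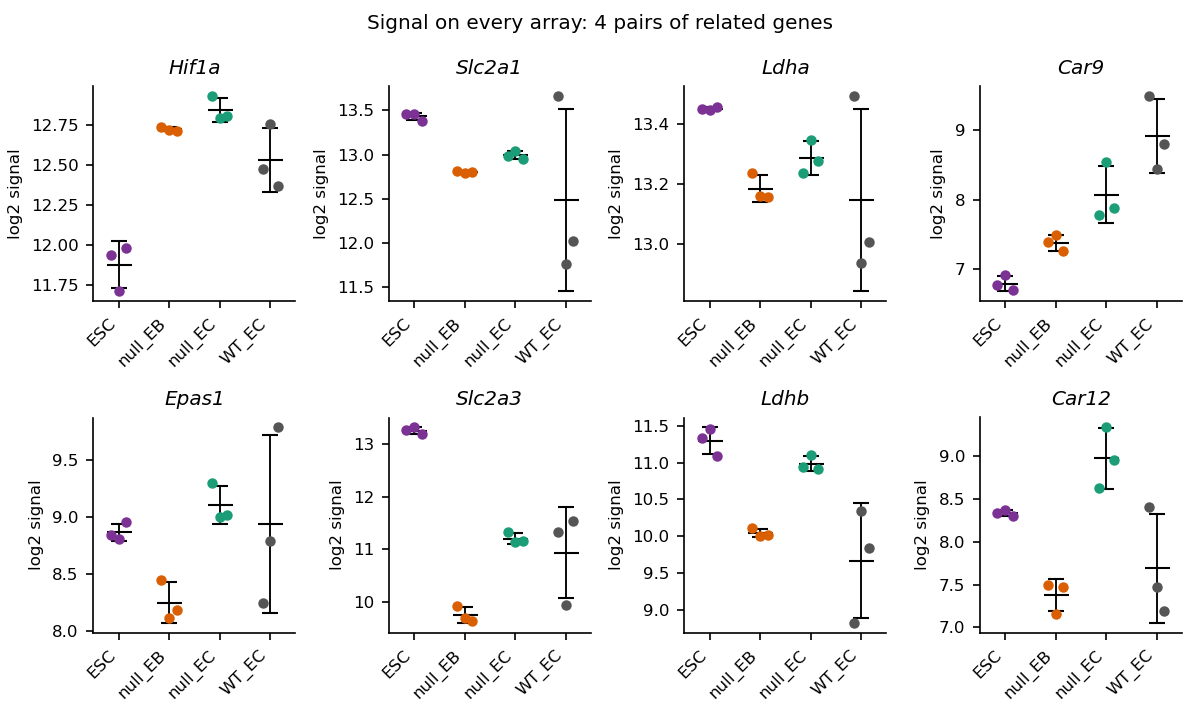
Log2 signal on every array for 4 pairs of related genes, with points for arrays and bars for the mean and SD of the 3 arrays of a group. Slc2a3 and Ldhb separate the groups far more than Slc2a1 and Ldha, and the vertical scales differ between panels.

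Further genes of the same pathways were counted in lists of their own. Of 38 other hypoxia-responsive genes measured, 12 rose (21.8% of all genes) and 9 fell (23%) in ESC against null_EB, 9 rose (22.9%) and 14 fell (25.1%) against null_EC, and 7 rose (25.4%) and 12 fell (21.7%) against WT_EC. Vegfa, the angiogenic factor, fell 4.29-fold in ESC against null_EB (adjusted p = 0.000338), and Tfrc, the transferrin receptor, which is also 1 of the 25 housekeeping genes, rose 8.37-fold (adjusted p = 1.25e-08). In null_EB against null_EC, 0 of the 38 rose by limma and 5 fell (11 in both directions at an unadjusted p below 0.05), where 2.9% of all genes rose and 2.5% fell, among them Igfbp3, which binds insulin-like growth factors (3.65-fold, adjusted p = 0.000510), and Lox, which crosslinks collagen (2.22-fold, adjusted p = 0.0110). In null_EC against WT_EC, 4 rose (8.12% of all genes) and 4 fell (5%), with Igfbp3 higher 3.88-fold (adjusted p = 0.000127) and Adm, the vasodilator peptide adrenomedullin, lower 10.1-fold (adjusted p = 0.000807), and without WT_EC 1 the counts were 16 higher (10.1% of all genes) and 5 lower (7.25%). Of 10 further genes of oxygen sensing, the ubiquitin ligase scaffold Cul2 rose 2.01-fold (adjusted p = 1.55e-05) and Vhl, its substrate receptor for hypoxia-inducible factors, fell 1.74-fold (adjusted p = 0.0163) in ESC against null_EC. Over all 10 of these, 2 rose (22.9% of all genes) and 3 fell (25.1%) in that comparison.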

How the data were processed

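RNA of 12 samples was measured on Affymetrix mouse gene arrays, of which the labelling protocol used 300 ng of total RNA. Deposited were log2 signals, 1 value per probe set and array, which the authors made with Affymetrix Expression Console 1.2.1 and RMA, per the submitters' processing notes. The labels' protocol names a human array, but the probe sets carry the identifiers of the mouse platform. Of 35556 probe sets, 21789 name 1 gene, 1621 several and 12146 none, and only the first kind was used. For the 999 genes with several, the probe set with the highest mean over all arrays was taken. Arrays give no read depth, so the number of arrays limits the precision.

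Groups follow the sample labels. The 5 comparisons were fitted together with limma 3.58.1 (lmFit and eBayes, R 4.3.3) on all 12 arrays and 19938 genes, with Benjamini-Hochberg adjustment over all of them and a threshold of 0.05. The script was tested on simulated data. Values on every array are given for Hif1a, Epas1, Slc2a1, Slc2a3, Ldha and Ldhb, for all calls in null_EC against WT_EC, and for the 6 called genes with the largest increase and decrease in each other comparison; other genes are named by their place in the pathway, and those of other lists among the 3 largest changes in a comparison. The members and lists were chosen with earlier results of these data known. Alternatives changed the genes tested, the probe set rule, the scaling, the arrays in the fit, array weights, the variance model and the threshold, and left out each array in turn. The titles do not say whether replicate numbers pair the samples, and the fits treat them as unpaired. Same-numbered arrays correlated by only -0.26 to 0.23 in their deviations from the group means. With 3 arrays per group this check cannot exclude matched handling.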

Additional observations from a re-analysis of the deposited data

How the results depend on the processing

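The number of listed genes called moved most with the arrays that set the spread. In null_EC against WT_EC, 4 genes were called, against 16 with limma's array weights, 2 at a minimum of 2-fold, and 0 in a fit of those 6 arrays alone, where limma gave 5 higher and 1 lower at an unadjusted p below 0.05; leaving out 1 array gave 2 to 24, the highest without WT_EC 1. In null_EB against null_EC, 3 were called, against 6 with the housekeeping shift, 22 on their 6 arrays alone, 24 with array weights, and 1 whichever of their arrays was left out. On the 9 arrays without WT_EC that count was 22, with or without the housekeeping shift. In ESC against null_EC, 16 were called, against 30 on 6 arrays, 31 with array weights, 31 on 9 arrays, 30 on 9 arrays with the housekeeping shift and 4 at a minimum of 2-fold. In ESC against null_EB, 14 were called, against 28 on 6 arrays, 30 with array weights, 29 on 9 arrays, 23 on 9 arrays with the shift and 6 at a minimum of 2-fold. In ESC against WT_EC, 17 were called, against 10 on 6 arrays and 6 at a minimum of 2-fold, and 14 to 27 with 1 array left out, the highest without WT_EC 1. With a replicate block the counts were 4, 3, 16, 14 and 17, as without it. The fits of 9 arrays, and a probe set rule that asks for a RefSeq mRNA, were chosen after seeing the data. Of 3010 values of single genes under these settings, 82 lost their call, 257 gained 1 and 10 changed sign with a call on the new side. The sign changes were Pfkfb3 in null_EC against WT_EC without WT_EC 1 (0.38, where leaving out each array gave -0.64 to 0.38), Pfkm (0.26), Tpi1 (0.26) and Pkm (0.29) in null_EB against null_EC on 9 arrays with the housekeeping shift, Aldoa (-0.38) and Kdm3a (-0.39) in ESC against null_EB with that shift on 12 or 9 arrays, and there on 9 arrays Aldoc (-0.21) and Pgam1 (-0.44). Hk1 minus Hk2 depended on the probe set rule, being -0.37 in ESC against null_EC and -0.54 in ESC against null_EB with the mean of all probe sets, against -0.62 and -0.77. The cause of these shifts was not tested beyond what each setting changes. RMA signals below the all-value median of 8.01 carry little resolution. Examples are Pfkfb4, Car9 in ESC and null_EB, and Car12 in null_EB and on WT_EC 2 and 3.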

Other observations

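Beside glycolysis, enzymes of the tricarboxylic acid cycle, which oxidises acetyl-CoA in mitochondria, were counted as a list of their own. Of 19 measured, 7 rose and 0 fell in ESC against null_EB (8 in both directions at an unadjusted p below 0.05, limma), where 21.8% of all genes rose and 23% fell. Against null_EC, 6 rose and 0 fell (9 at an unadjusted p below 0.05, limma), where 22.9% and 25.1% of all genes did, and against WT_EC, 8 rose and 1 fell, where 25.4% and 21.7% did. The direction of the list depends on the scaling. With the housekeeping shift, 2 rose and 7 fell against null_EB (11.1% and 67.4% of all genes), 2 rose and 3 fell against null_EC (17.1% and 37.8%), and 3 rose and 2 fell against WT_EC (17.2% and 46.8%). Idh3a, a subunit of isocitrate dehydrogenase, rose 2.33-fold, 1.99-fold and 2.06-fold in ESC against null_EB, null_EC and WT_EC (limma adjusted p = 0.000116, 0.000478 and 0.000364). Fh1, for fumarase, rose 2.13-fold, 2.01-fold and 2.04-fold (limma adjusted p = 0.000222, 0.000355 and 0.000331). Mpc1, a subunit of the carrier that brings pyruvate into mitochondria, is not among these 19 genes but in the pyruvate dehydrogenase list. It fell 2.52-fold, 2.89-fold and 2.39-fold in ESC (limma adjusted p = 1.74e-07, 4.92e-08 and 2.96e-07).

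In the pentose phosphate list of 11 genes, Prps1, which makes the ribose donor for nucleotides, rose 4.73-fold, 4.68-fold and 4.28-fold in ESC against null_EB, null_EC and WT_EC (limma adjusted p = 2.84e-07, 2.51e-07 and 5.08e-07). H6pd, the hexose-6-phosphate dehydrogenase of the endoplasmic reticulum, fell 4.05-fold, 4.66-fold and 6.98-fold (limma adjusted p = 9.57e-08, 3.73e-08 and 8.79e-09). These comparisons share the ESC arrays, and the lists were counted beside 21.8% to 25.4% of all genes called higher and 21.7% to 25.1% called lower.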
